A study of Mus musculus with 42 samples.

Results

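Crypts from the proximal and the distal colon of untreated wild-type (WT) mice were compared by RNA sequencing, using 4 proximal and 7 distal libraries. These 11 libraries were chosen by their labels (WT genotype, baseline, both colon segments) and are all the libraries of 1 table of normalized counts, out of 42 libraries in the study. The study as a whole asked what the transcriptional corepressor *Mtg16* (gene symbol *Cbfa2t3*) does in the colon, using *Mtg16*-null mice and mice homozygous for a P209T change in the protein (T/T), at baseline, after injury with dextran sulfate sodium and in inflammation-associated tumors. The libraries described here carried neither change. They came from WT littermates of the *Mtg16*-null mice (2 proximal and 4 distal libraries) and of the T/T mice (2 proximal and 3 distal libraries), from separately bred colonies on a C57/BL6 background, and every mouse was at least 8 weeks old. Proximal colon was the 5 cm next to the cecum and distal colon the 5 cm next to the anus. Crypts, the epithelial pits that line the colon, were freed by calcium chelation and shaking and were not sorted, so that each library was a bulk sample of all crypt cells and of any other cells that came loose with them.

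The colon takes over fluid from the small intestine at its proximal end and passes formed stool at its distal end. The proximal segment receives the bile acids, lipids and plant material that escaped the small intestine, and bacteria ferment much of it to short-chain fatty acids there. The distal segment recovers the remaining sodium and water under the control of aldosterone and lies under a mucus layer that holds bacteria away from the cells. Position along the gut is kept by clustered *Hox* genes, in which the order of genes along the chromosome follows the order of their activity from front to back of the body, and by further transcription factors of the intestinal epithelium.

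Each library held between 35346472 and 68919446 assigned reads (median 44979129). Values are the authors' normalized counts, in which the reads of each library are divided by 1 size factor, and proximal values are given in the order replicates 1 and 2 of the *Mtg16*-null colony and replicates 1 and 2 of the T/T colony. For the 7 distal libraries the lowest, median and highest values are given. The epithelial label held in both segments, with *Epcam*, an epithelial adhesion molecule, at 80665, 96117, 84654 and 87302 in proximal crypts and at 83887, 88763 and 98377 in distal crypts, and with *Krt8*, a keratin of simple epithelia, at 242319, 283320.3, 289995 and 294350.4 against 282045, 310067 and 323160.4. Libraries fell apart by segment on the first principal component, which held 71.9% of the variance, and correlations of log2 values were 0.974 to 0.990 within a segment and 0.893 to 0.921 between segments.

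Some properties of the libraries moved with the segment. The labels give each library a code that opens with a 4-digit number, called its code number here, whose meaning they do not state. It was nearly confounded with the segment, since the proximal libraries had code numbers 4149 and 5582, the distal libraries 4149 and 5094, and only 4149 held both segments, with 2 libraries of each. In the T/T colony every proximal library had code number 5582 and every distal library 5094. Segment and code number therefore cannot be told apart in values of the T/T colony alone. The labels do not say whether proximal and distal libraries came from the same mice, or that each library was a different mouse, so the p-values measure the spread between these samples. Markers of the ileum, the last part of the small intestine, moved with the segment: the summed normalized count of the 10 listed markers was 16435, 27403, 20631 and 25664 in proximal libraries and 1627 to 4416 in distal libraries, where 2 of the markers, the defensins *Defa17* and *Defa24*, were at 0. Most of this sum came from *Fabp2* and *Slc10a2*, with proximal means of 14606 ± 2518 and 6524 ± 2257 (SD). Some other markers were highest in proximal replicate 2 of the T/T colony, whose sum lay within the range of the other 3. *Defa24* was at 506 there and at 0 in the other 10 libraries. *Apoa1*, a lipoprotein component that is not on the list, was at 549 there and at 1.03 to 7.17 in the other 3 proximal libraries. *Sis*, the brush-border sucrase, was at 109.9, 206, 161 and 1087 in the proximal libraries, with the highest value in the same library, and at 0.630, 3.33 and 8.08 in the distal libraries (log2 fold change -5.81 ± 0.59, adjusted p = 2.62e-06, and -5.11 without that library). T cell markers moved with the segment as well. The summed normalized count of the 9 tested T cell markers was 4095 to 8087 in proximal and 506 to 2413 in distal libraries, with *Cd3e* at 358, 659, 572 and 414 against 46.2, 119 and 242. The share of reads from mitochondrial DNA was 7.08 to 8.19% in proximal and 3.66 to 5.25% in distal libraries. Fewer cells of a type and less RNA per cell cannot be told apart in such bulk samples.

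Of 18515 genes in the table, 13841 had a mean normalized count of at least 10 and entered a limma fit, on the scale of log2(normalized count + 1). Differences are log2 fold changes, distal minus proximal, ± standard error, with Benjamini-Hochberg adjusted p-values over all tested genes, and a gene was called at an adjusted p under 0.05. The added 1 understates the change of genes with low counts. The 2 segments differed at 5824 genes (42.1% of those tested), of which 2785 (20.1%) were higher in distal and 3039 (22%) were lower in distal crypts. Most calls were small: 898 of the genes higher in distal crypts (6.49% of all tested) and 1281 of those lower (9.26%) differed by at least 2-fold, and 63 and 96 by at least 32-fold. In 1958 genes (14.1%) every distal library lay above every proximal library, and in 2201 (15.9%) every proximal library lay above every distal one. Many genes named below were chosen by the size of their difference, so that their lack of overlap follows in part from that choice. The median log2 fold change over all tested genes was 0.00475. With code number as a covariate, a fit that takes the segment difference from the 4 libraries of code number 4149 alone, 1595 genes were called higher and 1594 lower. Genes named below whose call did not hold in that fit are pointed out with its adjusted p, and where the difference of a called gene moved by over 1.5 times its log2 fold change in that fit is given. With the 4 libraries of code number 4149 fitted alone, 944 genes were called higher and 1070 lower, and among the genes named below *Hoxa3*, *Hsd11b2*, *Scnn1g*, *Aqp8*, *Gucy2c*, *Slc5a8*, *Scd2*, *Ppargc1a*, *Ces1f*, *Zg16*, *Muc13*, *Itln1*, *Clca1*, *Fut2*, *Lypd8*, *Ifit1*, *Cldn2* and *Pgk1* then also lost their call, while *Npc1l1* and *Cd8a*, not called with the covariate, were called.

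**Figure D1:**
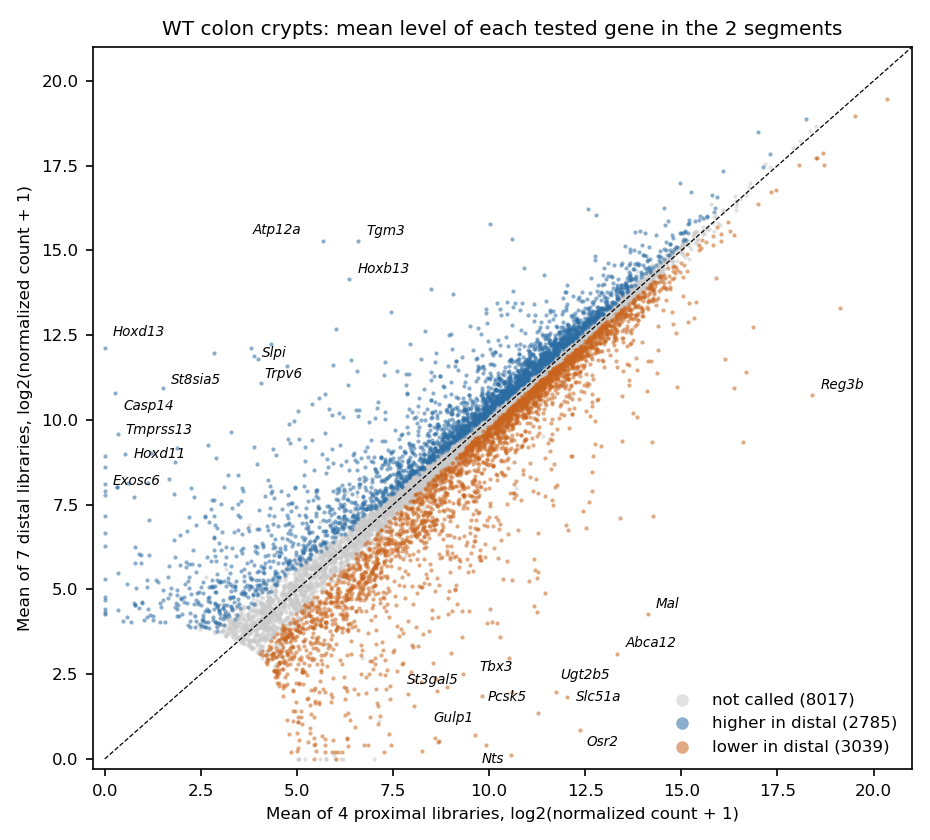
Mean level of each of 13841 tested genes in the 4 proximal (horizontal axis) and the 7 distal libraries (vertical axis), both as log2(mean normalized count + 1), with 1 point for each gene, the 2785 genes called higher in distal crypts in blue, the 3039 called lower in orange and the others in gray. Most genes lie near the dashed line of equal levels, and the labelled genes are among those with the largest differences in each direction for genes with a mean of at least 200, such as *Hoxd13* at 0 in proximal crypts and *Osr2* near 0 in distal crypts.

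*Hox* genes differed between the segments in both directions, and several were at or near 0 in 1 of them. Of 27 tested *Hox* genes, 13 were higher in distal crypts (20.1% of all tested genes were) and 10 were lower (22% of all tested genes were), and their median log2 fold change was 0.13 against 0.00475 for all tested genes. *Hoxd13*, the last gene of its cluster and a marker of the hindgut end, had no read in any of the 4 proximal libraries and was at 3496, 4065 and 6473 in the distal libraries. Its mean in distal crypts was at least 6353-fold higher than a floor of 3 reads over the proximal group (log2 fold change 12.08 ± 0.16, adjusted p = 1.60e-14). *Hoxb13*, the last gene of the HoxB cluster, was at 23.1, 12.6, 27.9 and 259 in proximal and 16898, 17856 and 19501 in distal libraries (log2 fold change 8.84 ± 0.56, adjusted p = 2.73e-08, and 10.00 with code number in the fit). The groups did not overlap, and the highest proximal value was in replicate 2 of the T/T colony, without which the log2 fold change was 9.74. It was 10.01 within the *Mtg16*-null colony alone and 7.66 within the T/T colony alone. Per kilobase of exon, *Hoxb13* had the highest normalized count of the named protein-coding *Hox* genes in distal crypts, at 8235, followed by *Hoxd13* at 1789 and *Hoxa13* at 1104, whereas *Hoxb9* at 1465 and *Hoxb6* at 1267 led in proximal crypts.

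The HoxB cluster on chromosome 11 reversed between its ends. *Hoxb8* was at 1473, 1793, 1332 and 1266 in proximal and 1.89, 7.78 and 10.5 in distal libraries (log2 fold change -7.67 ± 0.35, adjusted p = 1.22e-09, and -8.73 with code number in the fit). *Hoxb2*, near the front end, was at 199.9, 162, 135 and 113 in proximal crypts, and 1 read was assigned to it in all distal libraries together, a ratio of 1062 with a 95% counting interval of 191 to 41930. *Hoxb3*, *Hoxb4*, *Hoxb5*, *Hoxb6* and *Hoxb7* had log2 fold changes between -5.999 and -5.75 (-6.74 for *Hoxb5* with code number in the fit), and none of their distal values reached a proximal one. *Hoxb9*, the neighbor before the gap to *Hoxb13*, was also lower in distal crypts, with a smaller difference (4003, 4236, 3419.5 and 3429.9 against 1249, 1367 and 1728, log2 fold change -1.41 ± 0.09, adjusted p = 4.28e-08). Intervals and floors of this kind cover counting error only.

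The HoxD cluster on chromosome 2 was divided as well, near its middle. *Hoxd4* was at 503, 244, 222 and 104 in proximal and 0, 4.51 and 9.45 in distal libraries (log2 fold change -5.94 ± 0.66, adjusted p = 7.17e-06, and -6.77 with code number in the fit), and *Hoxd8* fell from a mean of 132 ± 57.5 to 13.1 ± 7.05 (SD, n = 4 and 7), with a log2 fold change of -3.24 ± 0.38 that was -3.85 with code number in the fit. *Hoxd3* had no distal read and a proximal mean of 27.0 ± 13.6, but its mean over all libraries was under the minimum and it was not tested. From *Hoxd9* onward the direction was opposite. *Hoxd9* was at 2.39, 0, 1.03 and 0 against 29.5, 62.8 and 97.0, and *Hoxd10*, with 1 proximal read, was at 164, 224 and 426 in distal crypts. *Hoxd11* had 2 proximal reads against 338, 462 and 828.7, and *Hoxd12* had none against 162, 287 and 365. *Evx2*, which lies beyond *Hoxd13*, had no proximal read and was at 182, 204 and 295 in distal crypts (log2 fold change 7.78 ± 0.19, adjusted p = 6.24e-12).

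In the HoxA cluster on chromosome 6 no gene was at 0 in either segment. *Hoxa13* was at 201, 223, 321 and 687 in proximal and 2145, 2735 and 3253 in distal libraries (log2 fold change 3.10 ± 0.26, adjusted p = 3.82e-07, and 3.80 with code number in the fit), and *Hoxa9* and *Hoxa10* were higher in distal crypts by 2.50 ± 0.12 and 2.16 ± 0.17 log2 units. Differences in the same direction were also called for *Hoxa3*, *Hoxa5* and *Hoxa6* (0.51 ± 0.11, 1.38 ± 0.16 and 2.48 ± 0.25). *Hoxa2*, *Hoxa4*, *Hoxa7* and *Hoxa11* were not called, with *Hoxa7*, for example, at 1178, 1169, 890.3 and 1213 against 1073, 1209 and 1329. The antisense RNA *Hoxa11os* was at 302, 299.5, 372 and 581 against 3254, 4010.2 and 4814, while *Hoxa11* itself was at 154, 76.6, 96.2 and 201 against 83.5, 111 and 126. The 2 genes overlap on opposite strands, and strand use in the counting is not stated in the sources used here, so that their reads may not be fully separated. *Hottip*, a noncoding RNA at the *Hoxa13* end, rose from 59.5 ± 70.2 to 1119.8 ± 73.5 (SD), with log2 fold changes of 4.35 and 5.75 without proximal replicate 2 of the *Mtg16*-null and of the T/T colony (5.01 ± 0.55 with all libraries), 6.36 and 3.68 within each of these colonies alone and 6.39 with code number in the fit.

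**Figure D2:**
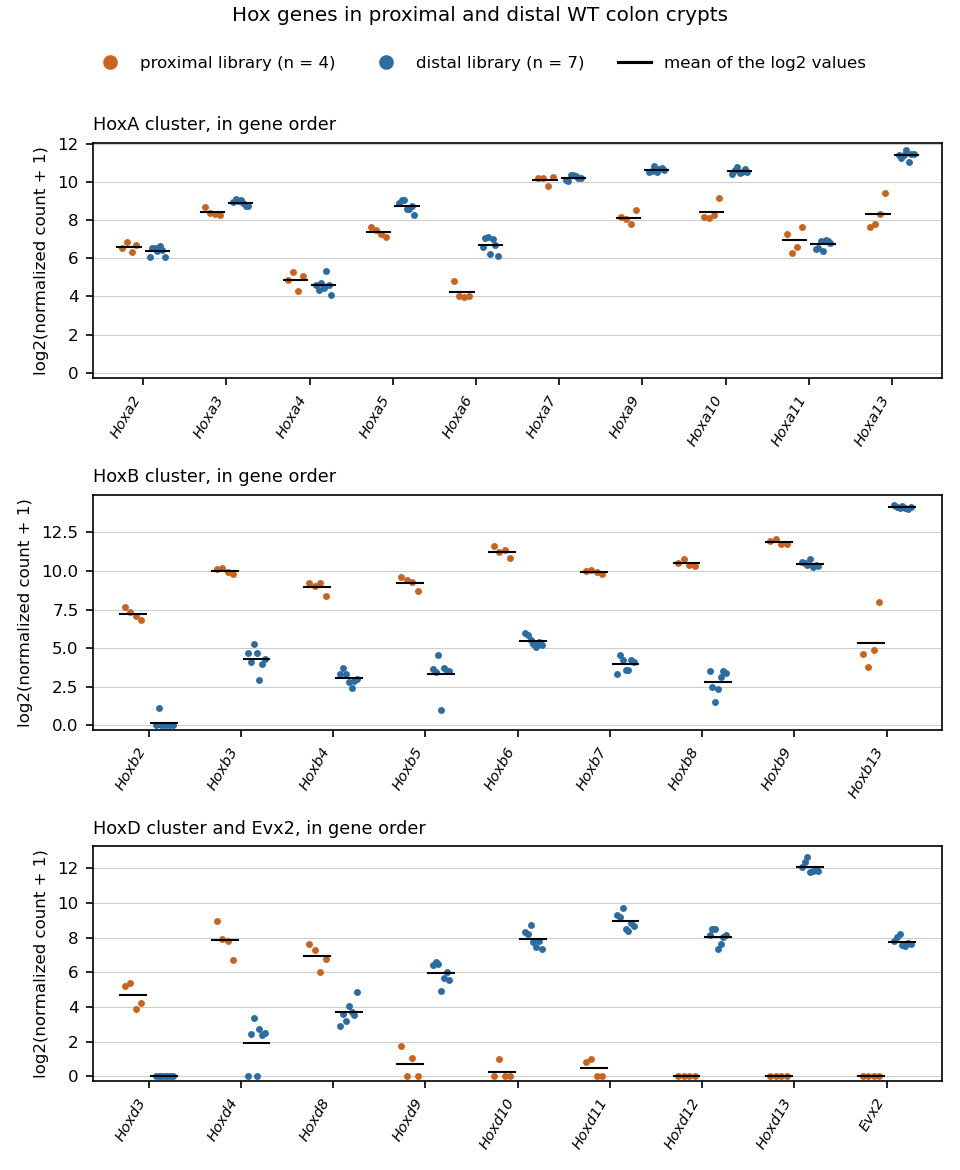
Normalized counts of the HoxA, HoxB and HoxD genes in each proximal and distal WT library (vertical axis, log2 of normalized count + 1), ordered along each cluster, with 1 point for each library. *Hoxb2* to *Hoxb9* and *Hoxd3* to *Hoxd8* are higher in all 4 proximal libraries, and *Hoxb13*, *Hoxd9* to *Hoxd13* and *Evx2* are higher in all 7 distal libraries, with bars at the mean of the log2 values.

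The promoters of 3 genes with very one-sided counts are shown, since they lie where the members differ by orders of magnitude: *Hoxb8*, close to absent in distal crypts, and *Hoxd13* and *Casp14*, close to absent in proximal crypts. Each window runs from 250 bases before to 50 bases after the start of the gene (RefSeq, GRCm38.p6), and capitals mark the motif TTTATNG on either strand, an AT-rich sequence of the kind that CDX and posterior HOX proteins bind. The *Hoxb8* window is chr11:96281655-96281954 on the plus strand, the *Hoxd13* window chr2:74667975-74668274 on the plus strand and the *Casp14* window chr10:78718244-78718543 on the minus strand.
Hoxb8: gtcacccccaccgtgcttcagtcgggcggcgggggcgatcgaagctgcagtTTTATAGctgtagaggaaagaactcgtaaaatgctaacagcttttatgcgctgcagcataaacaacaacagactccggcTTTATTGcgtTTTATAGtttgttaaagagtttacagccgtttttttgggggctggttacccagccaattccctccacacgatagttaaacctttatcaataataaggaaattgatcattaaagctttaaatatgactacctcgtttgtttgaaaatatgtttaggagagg
Hoxd13: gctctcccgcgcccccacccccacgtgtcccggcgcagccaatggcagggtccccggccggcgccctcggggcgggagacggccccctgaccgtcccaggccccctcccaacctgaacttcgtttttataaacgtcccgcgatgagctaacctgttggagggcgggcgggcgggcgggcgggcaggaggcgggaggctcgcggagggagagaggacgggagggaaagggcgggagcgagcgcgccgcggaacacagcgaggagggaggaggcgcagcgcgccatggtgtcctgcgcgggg
Casp14: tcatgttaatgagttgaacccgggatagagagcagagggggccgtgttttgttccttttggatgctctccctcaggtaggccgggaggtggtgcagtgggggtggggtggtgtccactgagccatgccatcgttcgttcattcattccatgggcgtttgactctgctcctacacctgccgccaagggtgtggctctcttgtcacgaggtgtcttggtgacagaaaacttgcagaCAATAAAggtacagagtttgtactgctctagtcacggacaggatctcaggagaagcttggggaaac
The motif occurred 3 times in the *Hoxb8* window, not at all in the *Hoxd13* window and 1 time in the *Casp14* window, where it is read on the opposite strand. Of 27025 promoter windows of the same length, 11.3% held at least 1 match, and a match or its absence describes letters and not a bound site.

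Other transcription factors of the gut differed in both directions, 14 of 31 tested being lower (22% of all tested genes were) and 7 higher in distal crypts (20.1% of all tested genes were), and the same shares stand beside the count of every other list. With code number in the fit 11 were lower and 2 higher. *Cdx2*, which specifies intestinal epithelium, was at 15590.5, 20566, 17012 and 18199.6 in proximal and 2159.8, 3227 and 4482 in distal libraries (log2 fold change -2.42 ± 0.16, adjusted p = 4.15e-08), whereas its relative *Cdx1* was at 17679, 19929, 15071 and 16806 against 18873, 20591 and 22515 and its small difference was lost with code number in the fit (adjusted p = 0.607) and without proximal replicate 1 of the T/T colony. *Isx*, a regulator of vitamin A uptake, was at 5808, 7231, 6298 and 5457 against 43.5, 151 and 377 (log2 fold change -5.25 ± 0.43, adjusted p = 3.25e-07, and -5.86 with code number in the fit). *Gata4* and *Gata5*, which mark the proximal gut, were at 48.8 ± 30.8 and 157 ± 75.9 in proximal and at 4.86 ± 1.75 and 6.53 ± 4.49 in distal crypts (SD). Their highest proximal values, 94.7 and 250.2, were in replicate 2 of the T/T colony, and without it the log2 fold changes were -2.61 and -4.19 (-2.20 for *Gata4* with code number in the fit). *Foxa2*, a regulator of endoderm, was higher in distal crypts (555, 539, 499 and 443 against 1843, 2266 and 2698, log2 fold change 2.12 ± 0.11, adjusted p = 5.36e-09). *Hnf4a*, a general regulator of enterocytes, was at 40801 and 46389.5 on average and was not called.

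Some factors were close to absent from distal crypts. *Osr2*, a zinc finger factor of patterned tissues, was at 4838, 6709, 5064 and 4459 in proximal and 0, 0 and 2.56 in distal crypts (log2 fold change -11.70 ± 0.40, adjusted p = 8.21e-11). *Tbx3*, a T-box repressor, was at 1538, 1683, 1521 and 1484 against 1.11, 3.78 and 4.19 (log2 fold change -8.73 ± 0.29, adjusted p = 8.05e-11). For both factors the lowest proximal library was more than 100 times the highest distal one. The study's target *Cbfa2t3* was itself among the genes called lower in distal crypts, at 1515, 3021, 2107 and 2114 against 998, 1128 and 1767, with overlapping libraries and no call once code number entered the fit (adjusted p = 0.132).

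Among the other largest differences, *Casp14* and *Tgm3* are known from cornified surface epithelia. *Casp14*, a protease of the skin barrier, had 1 read in the proximal libraries together and was at 1298, 1479 and 2504 in distal libraries (log2 fold change 10.53 ± 0.24, adjusted p = 4.83e-12). *Tgm3*, a transglutaminase that cross-links proteins, was at 23.9, 17.4, 52.7 and 289 against 29472, 40404 and 52443 (log2 fold change 9.56 ± 0.54, adjusted p = 9.82e-09, and 10.66 with code number in the fit). Its log2 fold change was 10.39 without proximal replicate 2 of the T/T colony, 10.75 within the *Mtg16*-null colony alone and 8.39 within the T/T colony alone. The membrane protease *Tmprss13* had 1 proximal read against 622, 725 and 1018. *Slpi*, a secreted inhibitor of leukocyte proteases, was at 15.9, 14.5, 4.14 and 17.4 against 3037, 4425 and 6273 (log2 fold change 8.43 ± 0.30, adjusted p = 1.33e-10). The absence of overlap in these 4 genes was a condition of their choice. The summed normalized count of the listed squamous epithelium markers overlapped between the segments, at 128 to 176 in proximal and 119 to 193 in distal libraries, and 1 of 4 tested was called, as higher. *St8sia5*, a sialyltransferase, was at 2.39, 0, 2.07 and 2.90 against 1162, 1937 and 2988, and *Exosc6*, an exosome subunit, had no proximal read and 209, 446 and 569 in distal crypts. How reads were assigned to the entry of *Exosc6* was not tested, so that its absence from proximal crypts is uncertain.

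Genes at the other extreme were high in every proximal library. *Abca12*, a lipid transporter, was at 8888, 9744, 13303 and 9407 against 1.05, 4.41 and 22.4 (log2 fold change -10.88 ± 0.64, adjusted p = 1.33e-08, and -9.69 with code number in the fit). *Mal*, a protein of apical membrane traffic, was at 13978, 25532, 16784 and 14986 against 7.33, 18.5 and 29.5 (log2 fold change -9.98 ± 0.35, adjusted p = 1.19e-10), and *Pcsk5*, a proprotein convertase, at 2371, 2457, 2335 and 2637 against 0, 1.28 and 3.46. *Gulp1*, an engulfment adaptor, and *St3gal5*, the enzyme that starts ganglioside synthesis, fell from means of 793 ± 129 and 905 ± 368 to 0.644 ± 1.70 and 2.58 ± 3.61 (SD). These 5 genes were likewise chosen among genes without overlap.

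**Figure D3:**
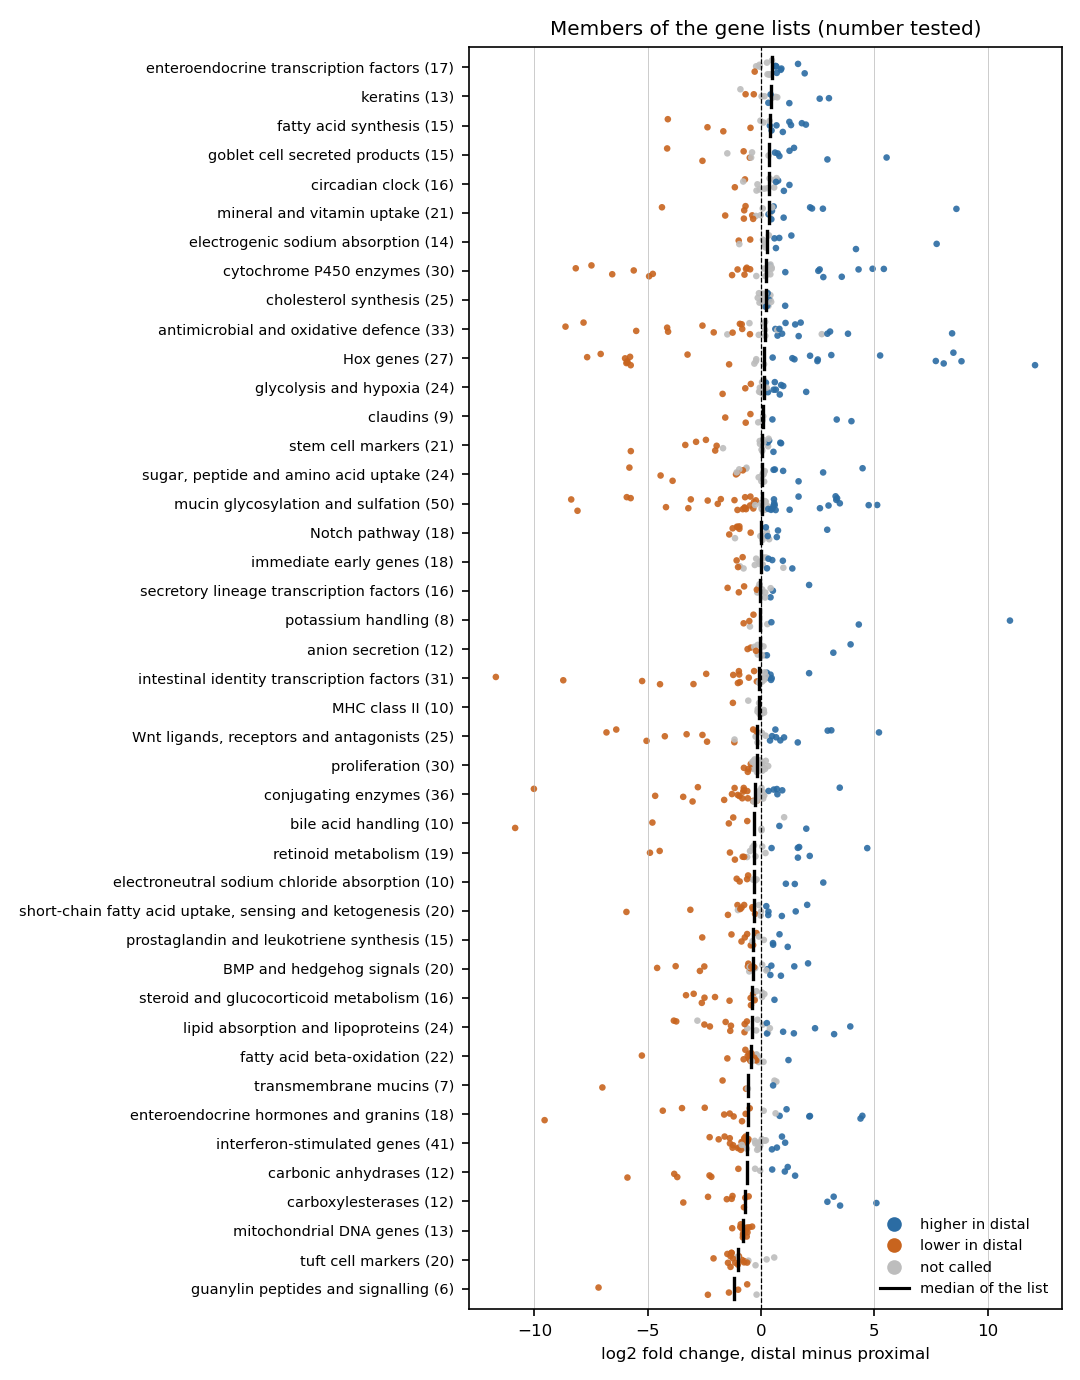
Log2 fold change, distal minus proximal, of every tested member (1 point each, horizontal axis) of each functional gene list (vertical axis, number tested in parentheses, ordered by the median drawn as a bar), with called members in blue (higher in distal) or orange (lower) and others in gray. Tuft cell markers, mitochondrial DNA genes and the guanylin list have calls on the lower side only, while the *Hox* and glycosylation lists spread far to both sides around a median near 0.

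*Scnn1a* and *Scnn1g*, subunits of the epithelial sodium channel, the aldosterone-regulated route of sodium absorption, were higher in distal crypts. The subunit *Scnn1a* was at 3045, 3167, 2756 and 3168 in proximal and 6714, 7342 and 9122 in distal libraries (log2 fold change 1.34 ± 0.09, adjusted p = 6.01e-08) and *Scnn1g* at 3.19, 47.5, 12.4 and 8.70 against 60.02, 232 and 709 (log2 fold change 4.18 ± 0.67, adjusted p = 1.94e-04, and 4.83 without proximal replicate 2 of the *Mtg16*-null colony). Neither gene had overlapping libraries. *Scnn1b* moved the other way (628, 695, 523 and 579.7 against 162, 293 and 628, log2 fold change -0.99 ± 0.27, adjusted p = 0.00962, and -0.39 with code number in the fit), with overlap and with no call once code number entered the fit (adjusted p = 0.389). *Fxyd4*, a channel-inducing regulator of the sodium pump, had 1 proximal read and was at 176, 250.1 and 407 in distal crypts. *Hsd11b2*, which protects the mineralocorticoid receptor from glucocorticoids, was higher by 0.59 ± 0.20 log2 units with overlapping libraries and lost its call without any 1 of 6 libraries, and the receptor gene *Nr3c2* was not called (6325 and 7094 on average). In all, 6 of 14 members of this list were higher and 2 lower in distal crypts.

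The sodium-hydrogen exchanger *Slc9a3*, the main route of neutral sodium uptake, did not pass the test (7560.3, 19030.2, 18663 and 13519 against 4645, 12496 and 23847), and *Slc9a2* was lower in distal crypts but not with code number in the fit (adjusted p = 0.215) or without proximal replicate 2 of the *Mtg16*-null colony. The chloride-bicarbonate exchanger *Slc26a3* was at 17502, 28117, 18449 and 19367 against 27673, 48817 and 54511 (log2 fold change 1.09 ± 0.19, adjusted p = 3.48e-04), a call that was also lost in that fit (adjusted p = 0.0857). *Slc4a2*, the basolateral anion exchanger, was lower in distal crypts (14129, 15524, 14684 and 15809 against 6280.2, 8161 and 9079, log2 fold change -0.95 ± 0.10, adjusted p = 4.06e-06). Over the 10 tested members of this route 3 were higher and 4 lower. Among chloride channels, *Cftr*, the main secretory one, was slightly lower in distal crypts (-0.46 ± 0.09, with an adjusted p of 0.1 and no call with code number in the fit), while *Ano1*, a calcium-activated chloride channel, was at 1516, 1437, 1487 and 1799.96 against 11645, 15127 and 16729 (log2 fold change 3.19 ± 0.10, adjusted p = 6.80e-11). *Best2*, a bicarbonate channel of goblet cells, was at 147, 301, 88.9 and 229.9 against 1697, 2662 and 4299 (log2 fold change 3.95 ± 0.30, adjusted p = 1.37e-07). The basolateral cotransporter *Slc12a2*, which loads cells with chloride, was not called.

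*Atp12a*, the colonic hydrogen-potassium pump that recovers potassium from the lumen, was at 8.76, 0.969, 52.7 and 139 in proximal and 30918, 37123 and 55684 in distal libraries (log2 fold change 10.98 ± 0.82, adjusted p = 1.39e-07, and 12.92 with code number in the fit). Its log2 fold change was 11.93 without proximal replicate 2 of the T/T colony, which had the highest proximal value, and 9.87 without proximal replicate 2 of the *Mtg16*-null colony, which had the lowest. It was 13.17 within the *Mtg16*-null colony alone and 8.78 within the T/T colony alone. Of 8 tested genes of potassium handling 3 were higher and 3 lower. *Kcnmb2*, a subunit of calcium-activated potassium channels, had no proximal read and was at 13.5, 21.8 and 25.2 in distal crypts, at least 27.7-fold higher than the floor. Carbonic anhydrases, which supply bicarbonate and protons to the exchangers, differed by isoform. Cytosolic *Car1* was at 562897, 692467, 560347 and 492826 in proximal and 5950.2, 10817 and 13576 in distal libraries (log2 fold change -5.89 ± 0.21, adjusted p = 1.02e-10), with a proximal mean 57.6 times the distal mean. *Car8* and *Car12* were lower in distal crypts (-3.83 ± 0.24 and -3.70 ± 0.18), and the membrane-bound *Car4* was higher (13058, 18324, 16935 and 16126 against 26949.8, 34132 and 45364, log2 fold change 1.18 ± 0.15, adjusted p = 2.29e-05). In all 4 of 12 isoforms were higher and 6 lower, and with code number in the fit 1 was higher and 6 were lower. Per kilobase of exon *Car1* led the isoforms in proximal crypts (462447 normalized counts) and *Car4* in distal crypts (18697).

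All 4 tested aquaporins, the water channels, differed. *Aqp8*, on the surface of colonocytes, was at 10175, 8528, 12989 and 13633 against 14888, 27686 and 33432 (log2 fold change 1.15 ± 0.20, adjusted p = 3.84e-04) and *Aqp4*, a basolateral channel, at 11192, 10436, 14652 and 16017 against 27761, 33972 and 39622 (log2 fold change 1.38 ± 0.12, adjusted p = 6.52e-07). *Aqp1* was at 6191, 7279, 5156 and 6410.5 against 763, 904 and 1928 (log2 fold change -2.56 ± 0.21, adjusted p = 2.77e-07), and *Aqp11* was lower in distal crypts (-0.96 ± 0.13). The libraries of the 2 segments did not overlap for any of the 4. Guanylin, a peptide that drives fluid secretion, was lower in distal crypts. On a list that holds guanylin peptides, their signalling genes and some genes outside that pathway, 5 of 6 tested members fell and none rose. *Guca2a* was at 27546, 42456, 21682 and 27603 against 3346, 5529 and 11124 (log2 fold change -2.35 ± 0.25, adjusted p = 5.31e-06), its receptor *Gucy2c* was lower (-0.61 ± 0.08), and *Prkg2*, the kinase below it, was at 2578, 3006, 1996 and 2198 against 6.402, 15.8 and 45.8 (log2 fold change -7.17 ± 0.42, adjusted p = 1.33e-08).

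**Figure D4:**
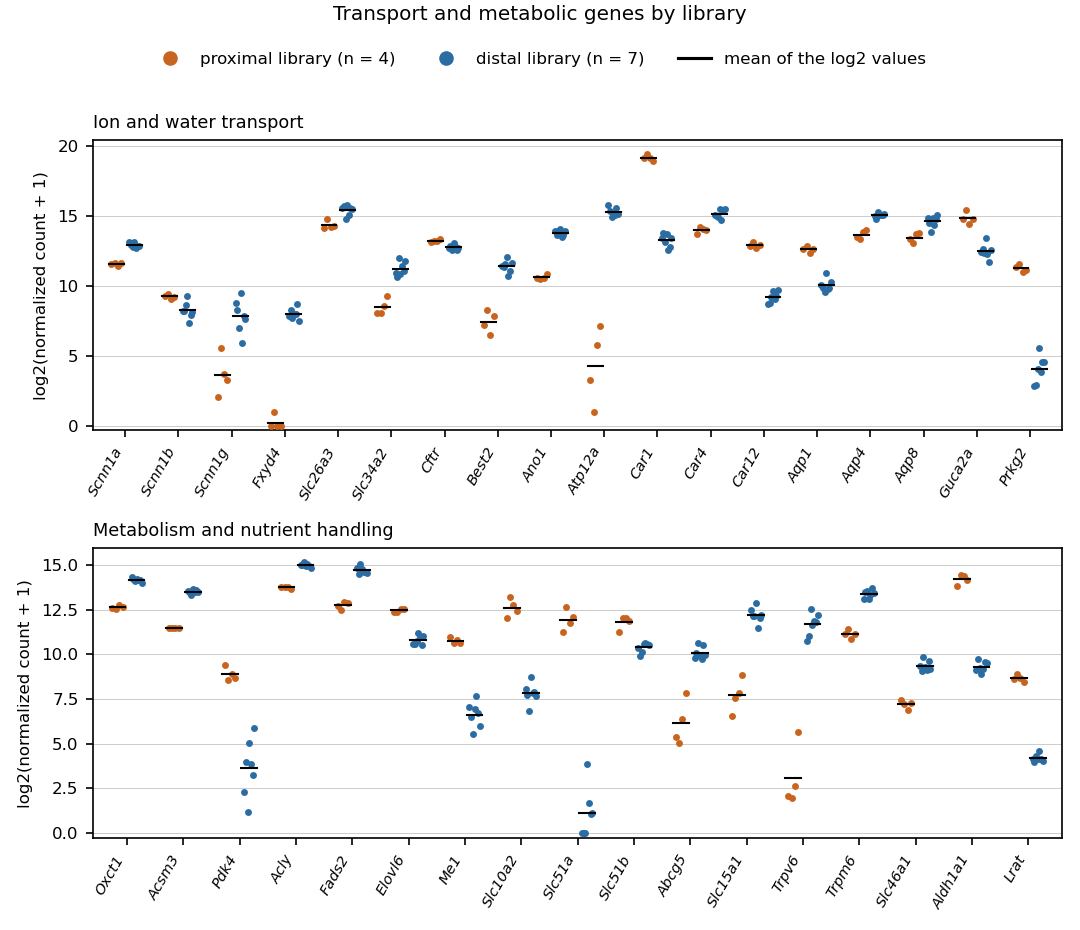
Normalized counts of genes for ion and water transport (top) and for metabolism and nutrient handling (bottom) in each proximal and distal WT library (vertical axis, log2 of normalized count + 1), with 1 point for each library. *Atp12a*, *Scnn1g*, *Slc15a1* and *Trpv6* lie higher in all distal libraries, and *Car1*, *Slc51a* and *Slc10a2* lie higher in all proximal libraries.

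Of 20 tested genes for uptake and sensing of short-chain fatty acids and for ketone body synthesis 6 were higher and 10 lower in distal crypts. The carriers *Slc16a1* and *Slc5a8* were higher by 0.23 ± 0.08 and 0.32 ± 0.10 log2 units, with overlapping libraries. *Slc16a1* was lost with code number in the fit (adjusted p = 0.764) and without any 1 of 6 libraries, and *Slc5a8* without proximal replicate 2 of the *Mtg16*-null colony. *Oxct1*, which lets a cell burn ketone bodies, was higher in distal crypts (6302, 6059.7, 7078 and 6346 against 16356, 18676 and 21017, log2 fold change 1.53 ± 0.07, adjusted p = 1.38e-09). *Acsm3*, an acyl-CoA synthetase for medium-chain fatty acids, was at 2804, 2858, 2894 and 2900.4 against 10272, 11753 and 13175 (log2 fold change 2.03 ± 0.07, adjusted p = 6.80e-11), whereas *Acads*, the first oxidizing enzyme for butyrate, was lower in distal crypts (log2 fold change -0.92 ± 0.08, adjusted p = 6.17e-07). Of the 20 tested genes, 4 higher and 9 lower ones had libraries that did not overlap between segments, with *Oxct1*, *Acsm3* and *Acads* among them.

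Genes of fatty acid oxidation were mostly lower in distal crypts: 15 of 22 tested fell and 1 rose, with a median log2 fold change of -0.43, while 9 fell with code number in the fit and 3 within code number 4149 alone. *Pdk4*, which turns cells from glucose to fat, was at 664, 379, 479 and 408 against 1.2605, 13.3 and 56.6 (log2 fold change -5.26 ± 0.69, adjusted p = 3.45e-05, and -5.87 with code number in the fit). *Ppara*, the receptor that drives both oxidation and ketogenesis, was lower (-1.49 ± 0.14) and *Pparg*, a nuclear receptor of differentiated colonocytes, was too (-1.56 ± 0.11), while the coactivator *Ppargc1a* was higher by 1.21 ± 0.18. Fatty acid synthesis leaned the other way, with 8 of 15 tested genes higher and 4 lower in distal crypts (5 higher with code number in the fit). *Acly*, which makes cytosolic acetyl-CoA, was at 14094, 13879, 14203 and 13162 against 29018, 33467 and 37512 (log2 fold change 1.25 ± 0.07, adjusted p = 1.06e-08), and the desaturases *Fads2* and *Scd2* were higher by 1.98 ± 0.11 and 1.80 ± 0.25. Among the lower ones were *Elovl6*, *Acacb* and *Me1*, lower (-1.67 ± 0.12, -2.37 ± 0.32 and -4.11 ± 0.31). Few genes of cholesterol synthesis were called, with 5 of 25 higher and none lower, and with 1 higher with code number in the fit and 8 higher without distal replicate 2 or 4 of the *Mtg16*-null colony.

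The carriers that recover bile acids were higher in proximal crypts, and of 10 tested genes of bile acid handling 5 were lower and 2 higher in distal crypts. The apical importer *Slc10a2* was at 4272, 9513, 6865 and 5445 in proximal and 113, 226 and 425 in distal libraries (log2 fold change -4.79 ± 0.29, adjusted p = 1.46e-08). Of the 2 subunits of the basolateral exporter, *Slc51a* was at 2469, 6543, 3424 and 4326 against 0, 1.05 and 13.2 (log2 fold change -10.85 ± 0.63, adjusted p = 1.14e-08, and -10.06 with code number in the fit) and *Slc51b* at 2485, 4169, 4281 and 3782 against 945, 1488 and 1608 (log2 fold change -1.42 ± 0.17, adjusted p = 1.21e-05). *Nr1h4*, the bile acid receptor, was lower (-1.23 ± 0.09). Proximal replicate 2 of the T/T colony was neither the highest nor the lowest proximal library for these 3 carriers. *Slc10a2* and *Slc51a* were highest and lowest in proximal replicates 2 and 1 of the *Mtg16*-null colony. These libraries also had the highest and lowest sums of ileal markers (27403 and 16435), and *Slc51b* was lowest in replicate 1 too. The relation of the carriers to the ileal markers was not tested. *Slc10a2* and *Fabp2* are also on the list of ileal markers given above. Among lipid genes *Fabp2*, the intestinal fatty acid binding protein, was at 11834, 17451, 13296 and 15844 against 877, 1099.9 and 1462 (log2 fold change -3.74 ± 0.13, adjusted p = 1.05e-10), and the sterol exporters *Abcg5* and *Abcg8* were higher in distal crypts by 3.93 ± 0.40 and 3.22 ± 0.50 (with code number in the fit 5.04 and 4.36, and for *Abcg8* 3.97 without proximal replicate 2 of the T/T colony, 4.24 within the *Mtg16*-null colony alone and 2.23 within the T/T colony alone). *Npc1l1*, the sterol importer, was at 32.6, 51.4, 34.1 and 379 against 0, 6.93 and 10.4, with a log2 fold change of -3.85 ± 0.76, or -3.03 without proximal replicate 2 of the T/T colony, and -2.39 with code number in the fit (adjusted p = 0.191) and within code number 4149 alone (adjusted p = 0.0224).

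Carriers for other nutrients went in both directions (6 of 24 tested sugar, peptide and amino acid genes higher and 6 lower in distal crypts), in shares near the 20.1% and 22% of all tested genes. The peptide carrier *Slc15a1* was at 93.2, 190.001, 229.6 and 465.7 in proximal and 2837, 4478 and 7579 in distal libraries (log2 fold change 4.48 ± 0.34, adjusted p = 1.63e-07, and 5.44 with code number in the fit), and *Slc36a1*, a carrier of small amino acids, rose by 2.74 ± 0.18 log2 units. *Slc3a1*, part of the cystine carrier, was at 2685, 4913, 2764 and 3168 against 121, 187 and 501 (log2 fold change -3.90 ± 0.38, adjusted p = 2.00e-06). *Enpep*, a brush-border peptidase, was at 436, 1401, 1255 and 2579.6 against 30.4, 55.4 and 73.7 (log2 fold change -4.43 ± 0.38, adjusted p = 5.58e-07, and -3.67 with code number in the fit). Of the 24 tested genes, 5 higher and 5 lower ones separated the segments without overlap, these 4 among them. For minerals and vitamins, 9 of 21 tested genes were higher and 7 lower, and 8 and 4 with code number in the fit. *Trpv6*, the apical calcium channel, was at 3.19, 2.91, 5.17 and 48.3 against 1708, 3592 and 5856 (log2 fold change 8.62 ± 0.58, adjusted p = 5.21e-08, and 10.06 with code number in the fit), with its highest proximal value in replicate 2 of the T/T colony, without which the log2 fold change was 9.47. It was 9.46 within the *Mtg16*-null colony alone and 7.84 within the T/T colony alone. *S100g*, the calcium carrier of the cytosol, fell by 1.58 log2 units, with no call once code number entered the fit (adjusted p = 0.104). The magnesium channel *Trpm6* and the folate carrier *Slc46a1* were higher by 2.25 ± 0.12 and 2.16 ± 0.16, and the manganese exporter *Slc30a10* was lower (-4.37 ± 0.41).

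Retinoid genes went in both directions, with 6 of 19 tested higher and 6 lower. *Aldh1a1*, which makes retinoic acid, was at 14503, 22329, 21856 and 18440.1 in proximal and 474, 592 and 839 in distal libraries (log2 fold change -4.90 ± 0.16, adjusted p = 6.80e-11). *Lrat*, which stores retinol as ester, was at 397, 469, 408 and 347 against 14.7, 16.6 and 23.3 (log2 fold change -4.47 ± 0.17, adjusted p = 1.96e-10). *Rdh16*, *Rbp2* and *Stra6*, a dehydrogenase, a binding protein and a membrane receptor for retinol and its carriers, were higher in distal crypts by 2.15 ± 0.14, 1.62 ± 0.20 and 4.68 ± 0.22 log2 units. Of the 19 tested genes, 6 higher and 5 lower ones had libraries that did not overlap, these 5 among them.

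Enzymes that handle foreign compounds differed by isoform within each family. Of 30 tested cytochrome P450 genes 9 were higher and 12 lower in distal crypts. *Cyp2c55* was at 126847, 103401, 86709.9 and 101325 against 589, 2133 and 6402 (log2 fold change -5.62 ± 0.50, adjusted p = 7.35e-07) and *Cyp2c65* at 18583, 22071, 19624 and 18944 against 55.1, 68.0 and 367 (log2 fold change -7.48 ± 0.47, adjusted p = 2.52e-08), whereas *Cyp2c68* was at 51.8, 109.5, 58.9 and 112 against 1719.6, 3864 and 4250.5 (log2 fold change 5.41 ± 0.26, adjusted p = 2.03e-09). *Cyp4b1* was lower (-6.57 ± 0.43), and *Cyp2d10*, *Cyp2d12* and *Cyp2f2* were higher by 2.75 ± 0.11, 3.56 ± 0.17 and 4.92 ± 0.52 (3.91 for *Cyp2f2* with code number in the fit). Conjugating enzymes were more often lower than higher in distal crypts (18 against 6 of 36 tested). The glucuronosyltransferase *Ugt2b5* was at 3327, 3692, 3666 and 2919.7 against 0, 3.14 and 6.11 (log2 fold change -10.02 ± 0.46, adjusted p = 1.23e-09, and -8.99 with code number in the fit), and *Ugt1a6a* and *Ugt1a1* were lower (-3.02 ± 0.20 and -2.79 ± 0.24). The glutathione transferase *Gsta3* was higher by 3.47 ± 0.26. All 12 tested carboxylesterases, which split esters of drugs and lipids, differed, with 8 lower, such as *Ces1f* (-2.34 ± 0.28) and *Ces1g* (-3.43 ± 0.41), and 4 higher, such as *Ces2f* (5.09 ± 0.40) and *Ces2g* (2.92 ± 0.14). Members of the Cyp2c, Cyp2d, Ugt1a, Ugt2b, Ces1 and Ces2 families are near-identical or share exons, and how reads that match several of them were divided makes single members uncertain.

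Products of goblet cells, which make the mucus, differed in both directions. Of 15 tested secreted products 7 were higher and 4 lower in distal crypts. *Fcgbp*, a mucus cross-linking protein, was at 122258, 137029, 129836 and 136617 in proximal and 269154, 315004 and 486395 in distal libraries (log2 fold change 1.45 ± 0.18, adjusted p = 1.90e-05), and *Clca1*, a mucus protease, at 107771, 53458, 57929 and 60929.9 against 96112, 165463 and 249809.7 (log2 fold change 1.25 ± 0.23, adjusted p = 6.15e-04), with overlap through 1 proximal library. *Sval1*, a homolog of seminal vesicle proteins, was at 174, 249, 357 and 646 against 11394, 14384 and 17652 (log2 fold change 5.54 ± 0.26, adjusted p = 1.58e-09, and 6.39 with code number in the fit), and *Wfdc2*, a protease inhibitor, at 799.5, 1267, 884 and 1007 against 5570.3, 7575 and 9382. *Tff3* and the lectin *Zg16* rose by 0.74 ± 0.14 and 0.81 ± 0.19. *Retnlb*, an antibacterial hormone-like protein of goblet cells, was higher in proximal crypts, at 37635, 29489, 31311 and 21656 against 511, 1804 and 4454 (log2 fold change -4.14 ± 0.44, adjusted p = 3.92e-06), and so was the lectin *Itln1* (-2.59 ± 0.36, and -1.94 with code number in the fit). *Atoh1*, the switch to the secretory lineage, was not called (4199, 4871, 4332 and 3384 against 2762, 4002 and 4775), and *Spdef*, which matures goblet cells, was lower in distal crypts (8303, 7632, 5792 and 4769.9 against 1793, 2171 and 3551, log2 fold change -1.48 ± 0.19, adjusted p = 2.67e-05). Of the mucins anchored in the membrane, *Muc16* was at 663, 440.1, 433 and 369 against 0, 3.38 and 6.93, *Muc3a* was lower (-1.70 ± 0.25), and *Muc13* was higher by 0.53 ± 0.12.

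The enzymes that build and cap mucin glycans were split between the segments, often within 1 enzyme family. Of 50 tested genes of glycosylation and sulfation, 18 were higher and 22 lower, so that 10 were not called. *B3gnt7*, which extends chains with N-acetylglucosamine, was at 1816, 1019.8, 1563 and 1784 in proximal and 28964, 40459.9 and 56823 in distal libraries (log2 fold change 4.75 ± 0.20, adjusted p = 5.70e-10). *B3gnt6*, the core 3 synthase of colonic mucin, was at 2251, 2929, 1979 and 2488 against 29.3, 34.0 and 64.1 (log2 fold change -5.92 ± 0.20, adjusted p = 7.40e-11), and the branching enzymes *Gcnt3* and *Gcnt4* were lower (-2.35 ± 0.17 and -3.10 ± 0.19). Fucosyltransferases changed with the segment, *Fut9* (58.9, 25.2, 29.0 and 52.2 against 1039.7, 1305 and 2326) and *Fut4* (1.65 ± 0.11) being higher and *Fut2*, which makes the H antigen, being lower (-0.70 ± 0.11). Among sialyltransferases, *St3gal6* was at 1064, 943, 789.99 and 1100.5 against 9087, 9554 and 11427 (log2 fold change 3.35 ± 0.09, adjusted p = 3.07e-11) and *St6galnac4* higher by 2.60 ± 0.10, while *St3gal1* was at 2232, 2024, 2611 and 2468 against 20.3, 42.2 and 93.7 (log2 fold change -5.75 ± 0.31, adjusted p = 5.56e-09, and -5.06 with code number in the fit). Terminal N-acetylgalactosamine is added by *B4galnt1* and *B4galnt2*, lower (-4.20 ± 0.32 and -1.78 ± 0.12), and by *B4galnt3*, higher by 2.97 ± 0.10. For sulfation, the sulfate donor enzyme *Papss2* was at 46900.4, 48202, 37941 and 38174 against 10322, 11394 and 13316 (log2 fold change -1.91 ± 0.09, adjusted p = 1.55e-09) and the sulfate carrier *Slc26a1* at 407, 415, 301 and 424 against 0, 0 and 2.09 (log2 fold change -8.10 ± 0.37, adjusted p = 1.22e-09). Of the 50 tested genes of this group, 15 higher and 19 lower ones had libraries that did not overlap between segments, among them all whose library values are given.

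**Figure D5:**
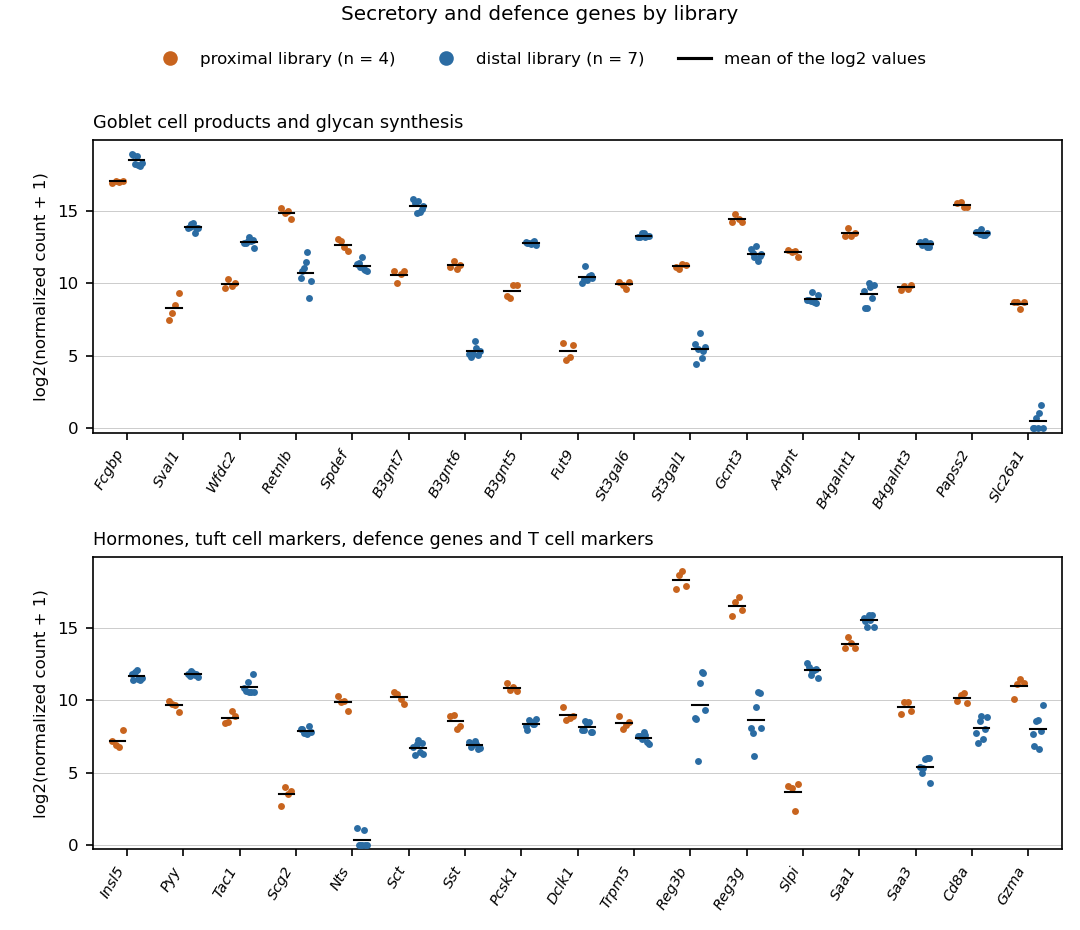
Normalized counts of goblet cell and glycan synthesis genes (top) and of hormones, tuft cell markers, defence genes and T cell markers (bottom) in each proximal and distal WT library (vertical axis, log2 of normalized count + 1), with 1 point for each library. *B3gnt7*, *Insl5* and *Sval1* are higher in all distal libraries, *B3gnt6*, *Nts* and *Retnlb* are higher in all proximal libraries, and the tuft cell gene *Dclk1* is lower in distal libraries by a smaller distance.

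Of 18 tested hormone and granin genes of enteroendocrine cells 6 were higher and 10 lower in distal crypts. *Insl5*, an appetite-related peptide of colonic L cells, was at 144, 118, 112 and 250.2 in proximal and 2687, 3051 and 4433 in distal libraries (log2 fold change 4.47 ± 0.20, adjusted p = 1.22e-09). *Pyy*, which slows gut transit and is made by the same cells, was at 1012, 861, 821 and 601 against 3151, 3682 and 4194 (log2 fold change 2.15 ± 0.12, adjusted p = 7.98e-09), whereas *Gcg*, the precursor of their glucagon-like peptides, was at 3134, 3040.02, 2578 and 2543 against 1587, 1826 and 3141 and lost its small difference with code number in the fit (adjusted p = 0.36), without any 1 of 6 libraries and in edgeR's test of the reads. *Nts*, neurotensin, was at 1296, 936, 1004 and 632 in proximal crypts, with 2 reads in all distal libraries together. *Sct*, secretin, was at 1502, 1380.4, 1091 and 871 against 73.3, 108 and 157 (log2 fold change -3.49 ± 0.22, adjusted p = 2.74e-08) and *Sst*, somatostatin, at 485, 518, 265 and 296 against 99.4, 124 and 144 (log2 fold change -1.63 ± 0.19, adjusted p = 1.30e-05). *Tph1*, which makes serotonin, and the hormone-processing enzyme *Pcsk1* were lower (-1.21 ± 0.18 and -2.49 ± 0.15), while *Tac1*, the substance P precursor, and the granin *Scg2* were higher by 2.13 ± 0.24 and 4.39 ± 0.22. Transcription factors of these cells were more often higher (8 of 17 tested, 1 lower), among them *Hhex* (1.92 ± 0.20), but 2 were higher with code number in the fit, and 2 were lower without proximal replicate 2 of the T/T colony.

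Markers of tuft cells, chemosensory cells of the epithelium, were lower in distal crypts in 15 of 20 tested genes and higher in none, with a median log2 fold change of -1.03. *Dclk1* was at 744, 408, 438 and 482 in proximal and 221, 244 and 383 in distal libraries (log2 fold change -0.84 ± 0.20, adjusted p = 0.00425), and *Trpm5*, their taste channel, at 479, 259, 322 and 357 against 124, 185 and 222 (log2 fold change -1.03 ± 0.19, adjusted p = 5.57e-04). *Pou2f3*, the factor on which they depend, was lower (-0.98 ± 0.26) with overlapping libraries. With code number in the fit 10 of the markers were lower and within code number 4149 alone 3, and *Dclk1*, *Trpm5* and *Pou2f3* were not called in the former (adjusted p = 0.164, 0.0592 and 0.415).

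The best known markers of stem and dividing cells were not called. *Lgr5*, the receptor that marks crypt base stem cells, was at 278, 428, 269.9 and 231 in proximal and 231, 270.2 and 417 in distal libraries and was not called (log2 fold change 0.04 ± 0.19, adjusted p = 0.894), nor was the stem cell factor *Ascl2* (237 and 291 on average) or the proliferation marker *Mki67* (12642 and 15959). Of 30 tested proliferation genes 5 were lower and none higher in distal crypts, against 22% lower among all tested genes, and 2 were lower with code number in the fit. Without proximal replicate 1 or distal replicate 2 of the *Mtg16*-null colony or proximal replicate 2 of the T/T colony, 3 proliferation genes were lower. Other genes listed as stem cell markers did differ. *Cd44*, an adhesion receptor of the crypt base, was at 4399, 3336, 3158 and 2979 against 704, 864 and 1089.7 (log2 fold change -2.02 ± 0.12, adjusted p = 2.12e-08), *Tnfrsf19* at 353, 163, 248 and 228 against 0, 3.46 and 13.2 (log2 fold change -5.75 ± 0.59, adjusted p = 2.93e-06, and -4.70 with code number in the fit) and the membrane glycoprotein *Prom1* lower (-1.96 ± 0.09). *Smoc2* and *Lrig1*, the latter a brake on growth factor receptors, were higher by 0.88 ± 0.11 and 0.85 ± 0.08.

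Ligands of the pathways that act on the crypt differed in both directions. Of 25 tested Wnt pathway genes 10 were higher and 10 lower. *Wnt5a* was at 125, 55.3, 91.0 and 185 in proximal crypts with 2 reads in all distal libraries together, *Wnt11* was at 115, 113, 73.4 and 102 against 2.25, 3.84 and 9.42 (log2 fold change -4.25 ± 0.32, adjusted p = 1.65e-07), and *Wnt8b* had no proximal read and 17.9, 37.7 and 67.6 in distal crypts. Among receptors, *Fzd3* was at 1185, 1049.9, 1514 and 1243 against 5.56, 8.82 and 19.3 (log2 fold change -6.82 ± 0.32, adjusted p = 1.44e-09), *Fzd7* was higher by 1.01 ± 0.08 and *Ror1* by 3.10 ± 0.18, and *Sp5*, a target of the pathway, was lower (-3.34 ± 0.41). Bone morphogenetic proteins, which promote differentiation, differed too: *Bmp2* was at 1050.4, 861, 846 and 865 against 2732, 3709 and 5485 (log2 fold change 2.07 ± 0.15, adjusted p = 7.84e-08), *Bmp3* at 2200.2, 3235, 2812 and 2870.5 against 141, 180.4 and 363 (log2 fold change -3.77 ± 0.24, adjusted p = 3.28e-08) and *Bmp7* lower (-4.58 ± 0.66, and -3.99 with code number in the fit). *Id1*, a target of these signals, was higher by 0.87 ± 0.07. The summed listed fibroblast markers, of which none was at 0 in either segment, were at 749 to 998 in proximal and 379 to 688 in distal libraries, and their part in the differences of these ligands was not tested. *Notch4* was at 167, 171, 141 and 149 against 932, 1210.1 and 1333 (log2 fold change 2.92 ± 0.11, adjusted p = 1.91e-10). The summed listed endothelium markers were at 154 to 283 in proximal and 279 to 387 in distal libraries, and their part in the *Notch4* difference was not tested. The Notch ligand *Dll1* was higher by 0.69 ± 0.14, a call lost with code number in the fit (adjusted p = 0.1). Of the tested genes of BMP and hedgehog signals 6 of 20 were higher and 9 lower, and of those of the Notch pathway 5 and 7 of 18. With code number in the fit these counts were 2 and 5 for the former and 2 and 2 for the latter. The higher count of the Notch pathway was 3 without any 1 of 7 libraries (proximal replicate 1 and distal replicates 1, 2 and 4 of the *Mtg16*-null colony, and both proximal replicates and distal replicate 1 of the T/T colony).

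Antimicrobial defence genes differed in both directions, with 12 of 33 tested genes higher and 12 lower in distal crypts. The antibacterial lectins *Reg3b* and *Reg3g*, whose sequences are close enough to share reads, were far lower in distal crypts. *Reg3b* was at 217087, 415022, 510737 and 243587 against 56.1, 651 and 4075 (log2 fold change -8.63 ± 0.95, adjusted p = 6.09e-06, and -9.67 with code number in the fit, and -7.99 without distal replicate 3 of the *Mtg16*-null colony). Its log2 fold change was -9.56 within the *Mtg16*-null colony alone and -7.35 within the T/T colony alone. *Reg3g* was at 57992, 115268, 144277 and 78669 against 71.2, 279 and 1552 (log2 fold change -7.83 ± 0.70, adjusted p = 8.36e-07, and -8.46 with code number in the fit). The distal libraries differed widely among themselves in both genes, but none reached a proximal value. *Lypd8*, which keeps flagellated bacteria off the surface, was at 285817, 367260.2, 311956 and 283614 against 392563, 479828 and 626868 (log2 fold change 0.63 ± 0.15, adjusted p = 0.00331). The serum amyloids were split, with *Saa1* at 12433, 20998, 15856 and 12458 against 34670.0, 49188 and 62428 (log2 fold change 1.66 ± 0.19, adjusted p = 9.00e-06) and *Saa3* at 538, 969, 950.3 and 612 against 18.5, 42.3 and 64.9 (log2 fold change -4.10 ± 0.32, adjusted p = 2.06e-07). *Lbp*, which binds bacterial lipopolysaccharide, and *Ltf*, an iron-binding protein, were higher by 3.83 ± 0.23 and 1.75 ± 0.20. The summed listed myeloid markers were at 3293 to 3755 in proximal and 4483 to 7043 in distal libraries, and their part in the defence genes was not tested.

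Interferon-stimulated genes were lower in distal crypts in 19 of 41 tested and higher in 4, with a median log2 fold change of -0.63, while 4 were lower with code number in the fit, 3 within code number 4149 alone and 8 in the *Mtg16*-null colony. *Ifit1*, an RNA-binding antiviral protein, was at 3028, 3805, 2757 and 3214 against 437, 535 and 1969 (log2 fold change -2.27 ± 0.33, adjusted p = 8.18e-05, and -1.40 with code number in the fit), the highest distal value being that of replicate 4 of the *Mtg16*-null colony, and *Usp18*, a brake on the response, was lost with code number in the fit (-0.86, adjusted p = 0.129). *Gbp2* and *Ifit1bl1* were higher in distal crypts by 1.06 ± 0.14 and 0.70 ± 0.11, the latter a close relative of *Ifit1*. The T cell markers were lower in distal crypts too, 8 of 9 tested with a median of -1.97: *Cd8a* was at 979, 1326, 1478 and 924 against 135, 261 and 494 (log2 fold change -2.10 ± 0.33, adjusted p = 1.71e-04, and -1.41 with code number in the fit) and the granzyme *Gzmb* at 992, 1330.01, 2041 and 1635 against 77.8, 203 and 518 (log2 fold change -2.92 ± 0.42, adjusted p = 7.53e-05, and -2.24 with code number in the fit). *Cd8a* lost its call with code number in the fit (adjusted p = 0.0514) and *Gzmb* kept it (adjusted p = 0.0359). *Cd3e* lost it too (-1.30, adjusted p = 0.0794). The part of T cells in the interferon result was not tested. Of 10 tested genes of MHC class II 1 was lower and none higher, and none was lower without proximal replicate 1 of the T/T colony.

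Claudins, which set the tightness of cell junctions, were divided evenly (3 higher and 3 lower of 9 tested). *Cldn8*, a sealing claudin, was at 1430.2, 423, 1268 and 762 in proximal and 6390.2, 9714 and 11941 in distal libraries (log2 fold change 3.34 ± 0.29, adjusted p = 6.89e-07) and *Cldn14* at 36.6, 31.0, 32.1 and 43.5 against 371, 607 and 686 (log2 fold change 3.99 ± 0.17, adjusted p = 5.70e-10). *Cldn15* and *Cldn2*, which form channels for small cations, were lower in distal crypts. *Cldn15* was at 10398, 11053, 9169.7 and 9766 against 2635, 3456 and 4562 and *Cldn2* at 15685, 10489, 11692 and 11284 against 8014, 8994 and 9407. Of the 9 tested claudins, 3 higher and 3 lower ones had libraries that did not overlap, these 4 among them. Of the keratins 5 of 13 tested were higher and 2 lower. *Krt36* was at 16.7, 15.5, 10.3 and 7.73 against 63.5, 105 and 136 (log2 fold change 2.99 ± 0.25, adjusted p = 4.31e-07), and *Krt20*, a marker of differentiated surface cells, was lower with overlapping libraries (58297, 85706, 88081 and 84174 against 39319.8, 47690.1 and 58579.6, log2 fold change -0.68 ± 0.13, adjusted p = 8.09e-04) and not called with code number in the fit (adjusted p = 0.0783).

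Genes of steroid metabolism were lower in distal crypts in 10 of 16 tested and higher in 1, a call absent without any 1 of 6 libraries (proximal replicate 1 and distal replicates 1 and 3 of the *Mtg16*-null colony, and both proximal replicates and distal replicate 3 of the T/T colony). *Hsd3b3* was at 14295, 13981, 11906 and 11118 against 1771, 1977 and 2689.6 (log2 fold change -2.61 ± 0.12, adjusted p = 1.49e-09) and its near-identical neighbor *Hsd3b2* at 1989, 1716, 1471 and 1406 against 247, 262 and 382, so that reads may be divided between them, and *Akr1c18*, which inactivates progesterone, was lower (-3.31 ± 0.37, and -4.46 with code number in the fit). *Nr3c1*, the glucocorticoid receptor, was at 5699, 6173, 6765 and 6572 against 3092, 3197 and 3269.5 (log2 fold change -0.98 ± 0.06, adjusted p = 9.00e-09), with little spread among the distal libraries. Glycolysis and hypoxia genes leaned higher in distal crypts (9 of 24 tested, 3 lower, and 2 higher within code number 4149 alone), with *Egln3*, an oxygen sensor, at 1031, 2035, 986 and 1538 against 3131, 5458 and 10225 (log2 fold change 1.99 ± 0.26, adjusted p = 3.65e-05) and *Pgk1*, a glycolytic enzyme, higher by 0.60 ± 0.10. All 13 genes of mitochondrial DNA were lower, as was their share of the reads given above, with a median of -0.79 and with *mt-Co1*, a subunit of cytochrome oxidase, at 1290006, 1445442, 1386512 and 1229223 against 545347, 721956 and 859363 (log2 fold change -0.90 ± 0.17, adjusted p = 7.10e-04), a call lost with code number in the fit (adjusted p = 0.0799). With code number in the fit 1 of the 13 was called and within code number 4149 alone 0, and in the *Mtg16*-null colony 2. Of 16 tested clock genes 4 were higher and 2 lower (20.1% and 22% of all tested genes were), *Clock* itself being higher by 0.75 ± 0.11. None of the clock genes was lower without proximal replicate 1 of either colony, and 1 was without proximal replicate 2 of the T/T colony, distal replicate 1, 2 or 4 of the *Mtg16*-null colony or distal replicate 3 of the T/T colony.

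The segment difference was also compared between the 2 colonies, since the WT mice of each were bred apart. In this comparison colony and code number cannot be told apart, because in the T/T colony the segments had different code numbers. No gene had a segment difference that differed between colonies at an adjusted p under 0.05 (0 of 13841 tested, 0%, in the limma interaction term), with 607 genes at an unadjusted p under 0.05. The count was 26 without proximal replicate 1 of the T/T colony, 2 and 1 without proximal replicates 1 and 2 of the *Mtg16*-null colony, and 1 with a pseudocount of 0.1. Within the *Mtg16*-null colony alone 1732 genes were higher and 1808 lower in distal crypts, and within the T/T colony alone 1975 and 2236.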

How the data were processed

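RNA of 4 proximal and 7 distal WT colon crypt samples was enriched by poly(A) selection and sequenced. Per the labels and the study's methods, the authors trimmed reads with fastp 0.20.0, assigned them to transcripts with Salmon 1.3.0 (mouse build mm10) and normalized gene counts with DESeq2 1.26.0 in R 3.6.3. The deposited values are normalized counts (a signal on the scale of reads), each the reads of a gene divided by a size factor of its library. Multiplying back gave whole reads for 100% of values (tolerance 0.01 read), 35346472 to 68919446 per library, which sets counting precision. Whether strand was used in counting is not given in the sources used here. The table's own fold changes and p-values were not used, since they hold the authors' comparison.

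Libraries were grouped by genotype, treatment and segment as labelled, and by colony. Log2(normalized count + 1) of genes with a mean of at least 10 was compared with limma 3.58.1 (trended variance, R 4.3.3), and p-values were adjusted by Benjamini-Hochberg (called under 0.05). Alternatives were edgeR 4.0.16 and DESeq2 1.42.0 on the whole reads, other scalings, filters and pseudocounts (0.1), covariates for code number, colony and *Xist*, single colonies, code number 4149 alone and each library left out. The fit was tested on simulated data first. Counting intervals are exact 95% intervals, and the floor is 3 reads over a group. Gene coordinates came from GENCODE, all genes having a match, and promoters from RefSeq.

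The members and gene lists were chosen with earlier results of these data known. Genes were named by rule: the 12 largest differences in each direction among called genes with a mean of at least 200 and no overlap between segments, the leading 3 members of each list, the 3 largest called members per list and direction with a mean of at least 50, and *Cbfa2t3*. Some genes selected by this rule are not reported here. The rest of the *Hox* and *Evx* genes with *Hottip* and *Hoxa11os*, *Gata4*, *Gata5*, *Hnf4a*, *Pparg*, *Nr3c1*, *Pgk1*, *Npc1l1*, *Prom1*, *Cyp2c55*, *Cyp2d10*, *Ugt1a1*, *Wnt5a*, *Wnt8b*, *Wnt11*, *Saa1*, *Saa3*, *Ltf*, *Lypd8*, *Tff3*, *Zg16*, *Tac1*, *Sst*, *Tph1*, *Gcg*, the glycosylation genes *Papss2*, *Fut2*, *Fut4*, *Gcnt3*, *Gcnt4*, *St3gal1*, *St6galnac4* and *B4galnt1* to *B4galnt3*, the cell type markers and all genes of the closing observations were chosen after their values were seen.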

Additional observations from a re-analysis of the deposited data

Results flagged for a closer look

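A library was marked where its log2 value lay far from the others of its segment by Dixon's 95% criterion. This held for 21 of 528 groups of values checked, and chance alone marks about 1 in 20. In proximal crypts, replicate 1 of the *Mtg16*-null colony was highest for *Hoxa6* (27.1, others 14.5 to 15.5), *Ces1g* (13945, others 4211 to 4698) and *Bmp2* (1050.4, others 846 to 865) and lowest for *Krt20* (58297, others 84174 to 88081). Replicate 2 of the same colony was highest for *Aqp11* (1886, others 1181 to 1276) and *Ugt1a1* (16344, others 9296 to 10101). In the T/T colony, proximal replicate 1 was lowest for *Hoxa7* (890.3, others 1169 to 1213), *Slpi* (4.14, others 14.5 to 17.4), *Slc26a1* (300.9, others 407 to 424) and the ribonucleotide reductase subunit *Rrm2* (1409, others 1567 to 1584). Proximal replicate 2 was highest for *Hoxa10* (572, others 275 to 305) and lowest for the kinase *Sgk1*, which acts on sodium channels (1756, others 4134 to 4745).

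In distal crypts, replicate 4 of the *Mtg16*-null colony was lowest for *Hoxb5* (1.02, others 10.1 to 22.1) and highest for *Zg16* (162696, others 83315 to 101863), *Id1* (15581, others 13500 to 14170) and *Ifit1* (1969, others 437 to 834). Replicate 3 of the same colony had the most assigned reads (68919446, others 35346472 to 46001954). In the T/T colony, distal replicate 1 was lowest for *Rbp2* (346, others 495 to 632), *Cyp2c68* (1719.6, others 3115 to 4250.5) and *Cldn14* (371, others 527 to 686), and distal replicate 2 was highest for the protease inhibitor *Csta1* (286, others 135 to 183). No library was marked in more than 4 groups.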

How the results depend on the processing

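Of 282 genes chosen for the text and tested, 265 were called, and none of the 265 changed direction under any alternative. All kept their call with a pseudocount of 0.1, without a filter, with a minimum mean of 50 (255 of them fitted), with colony or *Xist* as a covariate, with TMM scaling and, of 264 fitted, in DESeq2. The call was lost for *Gcg* in edgeR and for *mt-Co1* under quantile normalization, which fixes the most abundant gene by its construction. Code number as a covariate ended 30 calls, code number 4149 alone 48, the *Mtg16*-null colony alone 22 and the T/T colony alone 12. In the *Mtg16*-null colony these included *Cbfa2t3*, *Zg16* and *Lypd8*, and in the T/T colony *Hsd11b2*, *Muc13* and *Lypd8*. Leaving out each replicate in turn ended 0 to 3 calls, among *Cdx1*, *Gcg*, *Hsd11b2*, *Slc16a1*, *Slc5a8* and *Slc9a2*. The fold itself moved by over 1.5 times for 32 called genes in edgeR and 30 in DESeq2 (*Mptx1*, for example, at 5.78 in both against 7.33, and *Atp12a* at 9.67 and 9.64 against 10.98), for 30 with a pseudocount of 0.1, for 45 with code number as a covariate, for 22 in the *Mtg16*-null colony, for 27 in the T/T colony and for 0 to 9 without single libraries. Within a colony these included *Hoxa13*, *Hoxb8*, *Hoxd4*, *Hoxd8*, *St3gal5*, *Pdk4*, *Abcg5*, *Slc15a1*, *Cyp2f2*, *Sval1*, *Sp5*, *Reg3g*, *Akr1c18* and *Mgll*.

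The counts of 2785 genes higher and 3039 lower in distal crypts became 1595 and 1594 with code number as a covariate, 944 and 1070 within code number 4149 (where 120 list members were higher and 168 lower), 1732 and 1808 in the *Mtg16*-null colony and 509 and 573 when the change had to exceed 2-fold in the test. Code number 4149 and the colonies hold fewer libraries, and the part of the code number itself was not tested. Leave-one-out counts were 2480 to 2868 and 2632 to 3113. For the colony difference, leave-one-out counts were 0 to 26 (26 without proximal replicate 1 of the T/T colony, 2 and 1 without proximal replicates 1 and 2 of the *Mtg16*-null colony), and a pseudocount of 0.1 gave 1. Equal replicate numbers within a colony did not mark pairs (correlations of deviations 0.0742, -0.126, 0.0866 and 0.160), and a replicate block gave 2697 and 2935, ended 4 calls (*Gata6*, *Hsd11b2*, *Slc5a8* and *Lypd8*) and moved 8 folds by over 1.5 times. Each pair so numbered joins 2 code numbers, and a pairing within code number 4149, which the labels do not give, was not tested.

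Among genes that were not called, the direction changed for *Hoxa2* under quantile normalization (0.000385), for *Hoxa11* without proximal replicate 2 of the T/T colony (leave-one-out range -0.45 to 0.00969) and for *Lgr5* with code number as a covariate and within code number 4149 (-0.0995 in both), in the *Mtg16*-null colony (-0.221) and without single libraries (leave-one-out range -0.0759 to 0.22). Genes at 0 in 1 segment are bounded by the floor of 3 reads.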

Other observations

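Some further genes with large differences fall outside the groups described so far. They were chosen after their values were seen, every one separated the segments without overlap, and every one also kept its call with code number in the fit. The complement protease *C1ra* was at 71.7, 94.03, 102 and 119 in proximal and 1069, 1245 and 1393 in distal libraries (log2 fold change 3.69 ± 0.13, adjusted p = 9.60e-11), its relative *C1rl* at 15.9, 10.7, 25.9 and 23.2 against 159, 233 and 300.4, and *C3*, the central complement component, at 800.3, 1336, 1284 and 1156 against 2309, 4320.2 and 4703 (log2 fold change 1.82 ± 0.19, adjusted p = 4.54e-06). Another 4 genes are known from stratified epithelia, whose listed markers were called in 1 of 4 tested and had summed levels that overlapped between segments (128 to 176 in proximal and 119 to 193 in distal libraries). The keratin *Krt78* was at 9.56, 12.6, 26.9 and 11.6 against 103, 146 and 203, sciellin (*Scel*) at 15.1, 38.8, 13.4 and 25.1 against 218, 228 and 282, the protease inhibitor *Csta1* at 3.19, 22.3, 3.10 and 11.6 against 135, 170.2 and 286 and the annexin *Anxa8* at 105, 153, 148 and 206 against 1745, 2388 and 4032 (log2 fold change 4.04 ± 0.21, adjusted p = 3.64e-09).

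The distal libraries also held much higher levels of *Mptx1*, a mucosal pentraxin (2093, 15.5, 231 and 1785 against 42369.96, 55284 and 79805, log2 fold change 7.33 ± 0.98, adjusted p = 4.15e-05, and 8.62 with code number in the fit, and 5.87 to 8.19 without 1 of proximal replicates 1 and 2 of the *Mtg16*-null colony and 2 of the T/T colony, 8.32 within the *Mtg16*-null colony alone and 6.30 within the T/T colony alone), with a proximal spread wider than that of any other gene in this paragraph. *Trf*, the iron carrier transferrin, was at 19.9, 14.5, 11.4 and 30.0 against 3489, 4768 and 6321 (log2 fold change 7.99 ± 0.23, adjusted p = 3.50e-11). *Ly6g* and *Ly6c1*, small surface proteins better known from leukocytes and endothelium, were higher by 7.22 ± 0.54 and 5.73 ± 0.21 log2 units and reached 6605 ± 1242 and 3125 ± 595 in distal crypts (SD). For *Ly6g* the difference was 6.41 without proximal replicate 1 of the *Mtg16*-null colony, 8.46 with code number in the fit, 8.54 within the *Mtg16*-null colony alone and 5.88 within the T/T colony alone. The summed listed myeloid markers were at 3293 to 3755 in proximal and 4483 to 7043 in distal libraries. The summed listed endothelium markers were at 154 to 283 in proximal and 279 to 387 in distal libraries. The part of either cell type in these differences was not tested. *Nt5e*, which makes adenosine at the cell surface, the enolase *Eno3* and the alcohol dehydrogenase *Adh1* were higher by 4.38 ± 0.21, 4.67 ± 0.21 and 3.63 ± 0.15 (5.01 for *Nt5e* with code number in the fit).

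In the other direction, *Ntrk2*, a neurotrophin receptor, was at 2222, 1896, 2559 and 2469.5 in proximal and 10.2, 22.0 and 30.7 in distal libraries (log2 fold change -6.72 ± 0.24, adjusted p = 1.40e-10). *Adra2a*, an adrenergic receptor, was at 3350.1, 5785, 3339 and 3762 against 42.9, 99.2 and 279 (log2 fold change -5.29 ± 0.40, adjusted p = 1.61e-07). *Mgll*, which splits monoacylglycerols, and the lipase *Lpl* were lower in distal crypts (-6.45 ± 0.65 and -4.64 ± 0.21), as were the intestinal alkaline phosphatase *Alpi* (-5.10 ± 0.31) and *Prap1*, a lipid-binding secreted protein (-6.60 ± 0.21).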
